A study of Mus musculus with 31 samples.

Results

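Cacna1g, Cacna1h and Cacna1i, which encode the T-type calcium channels, and Hcn2, Hcn3 and Hcn4, which encode 3 of the hyperpolarization-activated HCN channels, were chosen by name as the pacemaker and low-threshold channels of thalamic burst firing. They are 6 of the 25497 genes in the data, and all 6 passed the filter on low counts that 14886 genes passed. Bulk RNA-seq of polyadenylated RNA had been made from the thalamus of 31 mice at postnatal day 90, to ask whether expression differed with the rearing of the mother. There were 7 male and 8 female offspring of mothers given social isolation rearing (SIR), and 8 male and 8 female offspring of control mothers. The labels name no strain, transgene or treatment of the offspring themselves, and the libraries are numbered 1 to 31 here as in the labels.

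T-type channels open near the resting potential once a hyperpolarization has removed their inactivation, and the calcium current they pass gives the low-threshold spike on which a burst of action potentials rides. HCN channels open on hyperpolarization, pass a depolarizing cation current, and are made easier to open by cyclic AMP. In thalamic relay neurons and in the inhibitory neurons of the reticular nucleus these currents together set the switch between single spikes and bursts, and with it the rhythms of sleep. Cacna1g encodes Cav3.1, the T-type channel of relay neurons, while Cacna1h (Cav3.2) and Cacna1i (Cav3.3) are the forms of reticular neurons. Hcn2 and Hcn4 carry most of the current in relay neurons, and Hcn3 is a form that cyclic AMP does not open further.

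Library totals were between 13004178 and 25741879 estimated counts. The shallowest library was control female 31, followed by control male 23 with 14810893. The relay markers Tcf7l2 and Slc17a6 averaged 258 and 223 TPM (transcript abundance scaled by length and library) over the 31 libraries, and 10 of 10 relay markers passed the filter on low counts. The library labelled SIR female 5 held 41.6 CPM (counts scaled by the library total) of the Y-linked gene Ddx3y, within the 31.5 to 50.2 CPM of the male libraries, against at most 0.0481 CPM in the 15 other female libraries. Without it none of the 6 genes passed in females or for sex. All SIR library numbers lie below all control numbers, so that the order of the library numbers and housing cannot be told apart. The labels name neither litters nor batches, and what the tests weigh is the scatter among individual mice. In whole tissue, fewer cells of a type and less RNA per cell cannot be told apart either.

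Sequence is shown for Cacna1g because the usage of its transcripts, and not its total, was called for housing, as described further on. The annotation lists 16 transcripts of Cacna1g, on the minus strand of chr11:94408391-94474198 (GENCODE M21, GRCm38), of which 11 are coding and longer than 2500 bases. A pair of short coding exons and a 21-base extension of another exon are present in some of these 11 and absent from others, and the length of each is a multiple of 3. Another short exon, of 66 bases, is in 1 of the 11 and is not described further. The 69-base exon is exon 14 of transcript Cacna1g-211 (chr11:94439709-94439777) and, as background, lies in the intracellular loop between channel domains II and III. The 21-base extension of exon 25 of the same transcript (chr11:94425764-94425784) and the 54-base exon that follows it in transcript Cacna1g-201 (chr11:94423671-94423724) lie in the loop between domains III and IV. Each stretch is printed 5′ to 3′ on the gene's strand in capitals, with the 12 transcript bases on either side in lower case.
Cacna1g 69-base exon: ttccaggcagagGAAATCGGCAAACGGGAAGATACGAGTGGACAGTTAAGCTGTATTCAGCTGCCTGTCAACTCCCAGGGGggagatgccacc
Cacna1g 21-base extension: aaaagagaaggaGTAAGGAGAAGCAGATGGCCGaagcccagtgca
Cacna1g 54-base exon: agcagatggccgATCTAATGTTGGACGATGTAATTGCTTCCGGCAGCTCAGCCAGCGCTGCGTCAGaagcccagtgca

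Levels were compared between genes as TPM, which divides by transcript length, and over coding transcripts of more than 2500 bases. Hcn2 was highest, at 200.9 ± 20.98 TPM (SD, n = 31), followed by Cacna1g at 60.2 ± 8.12 TPM and Hcn4 at 28.1 ± 4.93 TPM. Cacna1i stood at 11.9 ± 2.23 TPM, Hcn3 at 7.495 ± 1.43 TPM and Cacna1h at 4.68 ± 1.23 TPM. Each gene lay above the next in this order in 31 of 31 libraries. Hcn2 was a median of 3.40 times Cacna1g within a library, and the lowest Hcn2 level (150.3 TPM) lay above the highest of Cacna1g (74.4 TPM). The ranges of the lower genes overlapped between animals: Cacna1i reached down to 6.53 TPM where Hcn3 reached up to 9.76 TPM, and Hcn3 reached down to 4.10 TPM where Cacna1h reached up to 8.11 TPM.

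**Figure D1:**
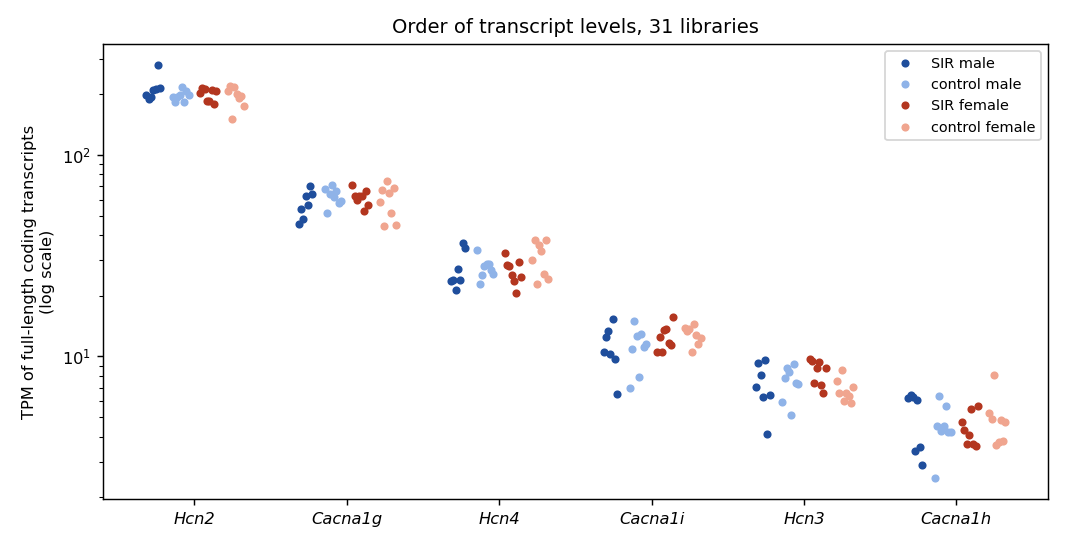
TPM of full-length coding transcripts (log axis) of the 6 genes in each of the 31 libraries, with points coloured by group (SIR male, control male, SIR female, control female). Hcn2 lies between 150.3 and 280.3 TPM in every group and Cacna1h between 2.48 and 8.11 TPM, and the groups overlap within each gene.

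Within the T-type family, Cacna1g held 78.2% of the full-length TPM over all libraries, Cacna1i 15.6% and Cacna1h 6.21%. The Cacna1g share was 77.7 ± 6.50% in SIR males and 79.97 ± 3.94% in control males, and 78.5 ± 3.22% in SIR females and 76.5 ± 5.39% in control females (SD, n = 7, 8, 8 and 8). The order of levels over TPM of all transcripts was the same, but Cacna1g then averaged 90.2 TPM. A pair of short noncoding models, Cacna1g-213 (434 bases) and Cacna1g-215 (749 bases), held 13.03% and 17.9% of that TPM but 0.746% and 1.95% of the gene's counts.

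Of the 3 T-type genes, none passed the test for housing over both sexes, in males or in females (edgeR quasi-likelihood test, Benjamini-Hochberg adjusted over all 14886 genes, threshold 0.05). The same held for the 3 HCN genes. Among all genes tested, 4.55% passed over both sexes, 1.33% in males and 4.62% in females. Single libraries moved these counts: over both sexes 678 genes passed, but 220 without control male 25 and 1042 without control female 20. In males 198 passed, but 0 without control male 22 and 506 without control male 27, and in females 688 passed, but 360 without SIR female 3. Other settings moved the counts further. Without the 8 libraries numbered apart from the rest, 0 genes passed over both sexes, 542 in males and 45 in females. With a trend on length removed, 24 passed over both sexes, 0 in males and 522 in females. The interaction, the housing effect in males minus that in females, passed for none of the 6 genes, against 2.83% of all genes. Sex, as males minus females, passed for none of the 6 either, against 10.1% of all genes. At an unadjusted p under 0.05 there was 1 of the 6 in females (Hcn3) and 1 for sex (Cacna1i), and 0 over both sexes, in males and for the interaction, where 22.1% of all genes lay under that p over both sexes, 17.6% in males, 20.01% in females, 15.3% for the interaction and 26.6% for sex. DESeq2 called 0 of the 6 in each of the 5 comparisons, where it called 7.6% of all genes over both sexes, 4.07% in males, 6.53% in females, 4.16% for the interaction and 12.3% for sex. limma-voom with sample weights called 1 of the 6, Hcn3 in females, where it called 7.96% of all genes. It called none of the 6 in the other comparisons, against 8.33% of all genes over both sexes, 4.23% in males, 4.79% for the interaction and 19.9% for sex.

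**Figure D2:**
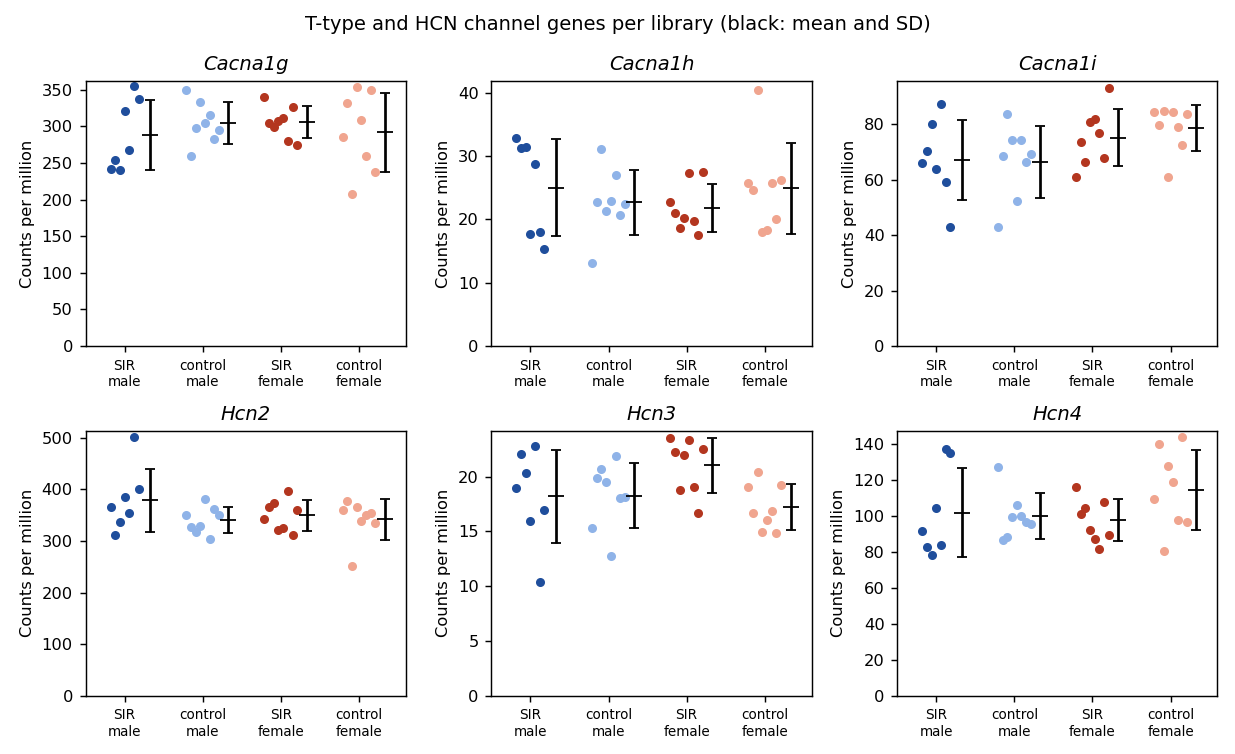
CPM on TMM-scaled totals of each gene (linear axes from 0), with 1 point per library, SIR left of control within each sex, and black marks for the mean ± SD of 7 or 8 libraries. The groups of a pair overlap in every panel; Hcn3 in SIR females (16.7 to 23.5 CPM) is set mostly above control females (14.8 to 20.5 CPM).

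Cacna1g, the relay neuron T-type channel, ranged from 240.3 to 355 CPM in SIR males (median 268), against 259 to 350 CPM in control males (median 301). In females it ranged from 275 to 340.1 CPM (median 306) in SIR offspring, against 207 to 354 CPM (median 297) in control offspring. SIR libraries lay on both sides of the control medians, and SIR females spread less than control females. The log2 fold change, SIR over control, was -0.01 ± 0.07 (SE) over both sexes, -0.08 ± 0.10 in males and 0.07 ± 0.09 in females, with adjusted p of 0.967, 0.736 and 0.751 (edgeR). The confidence interval over both sexes, from the SE, ran from -0.14 to 0.13. With effective length over all transcripts taken into account the direction over both sexes turned. The log2 fold change was 0.16 with effective length offsets, on log2(TPM + 1) and on log2(TPM + 0.1), outside that interval, and none of the 3 passed. These settings include the short noncoding models. TPM of all transcripts averaged 94.5 in SIR and 86.2 in control libraries, but full-length TPM averaged 59.5 and 60.7.

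Cacna1h, a T-type channel also known from sensory neurons (chr17:25374285-25433783, minus strand), was the lowest of the 6, with 316 to 868 estimated counts per library. It ranged from 15.3 to 32.9 CPM in SIR males (median 28.7), against 13.05 to 31.1 CPM in control males (median 22.6). SIR females had 17.5 to 27.5 CPM (median 20.6) and control females 17.99 to 40.5 CPM (median 25.1), the highest value being control female 20. The log2 fold change was 0.14 ± 0.18 in males and -0.19 ± 0.18 in females (edgeR adjusted p = 0.756 and 0.602), and the interaction was 0.33 ± 0.26 (adjusted p = 0.600). In males the direction turned on the scale of TPM over all transcripts, to -0.061 on log2(TPM + 1) and -0.078 on log2(TPM + 0.1). That TPM averaged 6.41 in SIR males and 6.60 in control males, but full-length TPM averaged 4.98 and 4.52. Without control female 20 the change in females was -0.05, and without the library labelled SIR female 5 it was -0.16. Over both sexes the interval ran from -0.27 to 0.23, wider than for the other T-type genes.

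Cacna1i, the slowest of the T-type channels (chr15:80287238-80398279, plus strand), ranged from 42.9 to 87.5 CPM in SIR males (median 66.1), against 42.8 to 83.8 CPM in control males (median 68.9). SIR females had 61.0 to 93.1 CPM (median 75.1), against 60.9 to 84.7 CPM in control females (median 81.7). Housing groups overlapped almost wholly, and the log2 fold change over both sexes was -0.03 ± 0.09 (edgeR adjusted p = 0.902). The contrast with the smallest p was sex: males averaged 66.8 ± 13.2 CPM (SD, n = 15) and females 76.9 ± 9.19 CPM (n = 16), and 12 of 15 males lay below the female median. The log2 fold change, males minus females, was -0.20 ± 0.09, which did not pass after adjustment (adjusted p = 0.132, edgeR). Without the library labelled SIR female 5 it was -0.21 (adjusted p = 0.121).

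Hcn2, the main HCN channel of relay neurons (chr10:79716634-79736108, plus strand), ranged from 311 to 501 CPM in SIR males (median 365), against 305 to 380.2 CPM in control males (median 339). SIR females had 312 to 396 CPM (median 350.2), against 251 to 378 CPM in control females (median 352). The highest of all was SIR male 14 and the lowest control female 20, while the other libraries of both groups overlapped. The log2 fold change was 0.16 ± 0.08 in males (5 of 7 SIR males above the control median; adjusted p = 0.302, edgeR) and 0.03 ± 0.08 in females (adjusted p = 0.863), where leaving out the library labelled SIR female 5 gave 0.02. In males, leaving out SIR male 14 gave 0.08 (adjusted p = 0.564).

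Hcn3 (chr3:89146074-89160196, minus strand) ranged from 16.7 to 23.5 CPM in SIR females (median 22.1), against 14.8 to 20.5 CPM in control females (median 16.7). 7 of 8 SIR females lay above the control median, though the ranges overlapped. The log2 fold change was 0.29 ± 0.12, and it did not pass after adjustment (adjusted p = 0.157, edgeR). In males Hcn3 ranged from 10.4 to 22.8 CPM in SIR offspring (median 18.9) and from 12.7 to 21.9 CPM in control offspring (median 18.8), with a log2 fold change of -0.01 ± 0.12 (adjusted p = 0.984). The difference between the sexes in this effect, -0.30 ± 0.17, did not pass either (adjusted p = 0.428). In females the change was 0.31 without the library labelled SIR female 5 and 0.21 (adjusted p = 0.147) with 2 components of the region marker scores in the fit. limma-voom with sample weights gave 0.33 (adjusted p = 0.0329), past the threshold, so that the call depended on the tool.

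Hcn4, the channel most sensitive to cyclic AMP in pacemaker cells of the heart as well (chr9:58823412-58863175, plus strand), ranged from 81.7 to 116 CPM in SIR females (median 96.7), against 80.5 to 144 CPM in control females (median 114). 7 of 8 SIR females lay below the control median, and the lowest of the females was a control, female 20. The log2 fold change in females was -0.23 ± 0.12 (adjusted p = 0.286, edgeR), and -0.33 (adjusted p = 0.122) without control females 20 and 31. Without the library labelled SIR female 5 it was -0.25 (adjusted p = 0.302). SIR males had 78.0 to 137 CPM (median 91.7) and control males 86.5 to 127 CPM (median 97.9), with a log2 fold change of 0.03 ± 0.13 (adjusted p = 0.952). The interaction was 0.26 ± 0.17 (adjusted p = 0.520).

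**Figure D3:**
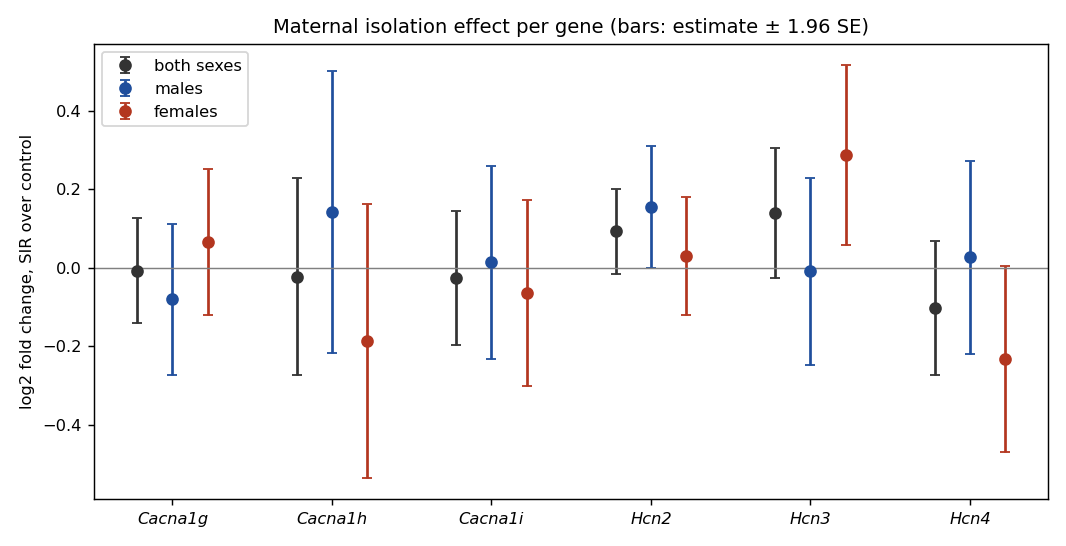
log2 fold change, SIR over control, of each gene over both sexes (grey), in males (blue) and in females (red), with bars for the confidence interval from the SE of the edgeR fit. All intervals include 0 except Hcn3 in females (0.06 to 0.52) and Hcn2 in males (0.0012 to 0.31), and neither passed after adjustment.

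The 6 genes list 39 transcripts, of which 21 passed the filter when transcripts were tested one by one, and none of these passed in any comparison (edgeR, adjusted over 41273 transcripts; limma-voom also called 0). At an unadjusted p under 0.05 there were 4 over both sexes, 4 in males, 5 in females, 3 for the interaction and 1 for sex. Of all transcripts, 10.4% had such a p over both sexes, 9.06% in males, 8.42% in females, 7.10% for the interaction and 12.5% for sex. Of all transcripts, 0.177% passed over both sexes, 0.0267% in males, 0.274% in females, 0.17% for the interaction and 1.58% for sex. Hcn4 has 1 transcript, and Hcn2, Cacna1i and Hcn3 each put over 96% of their counts on 1 (97.7% for Hcn2, 97.4% for Cacna1i and 96.9% for Hcn3 on average). Cacna1h put 47.3% on Cacna1h-205 and 48.3% on Cacna1h-201. These are identical over all 8220 bases of the shorter one, and Cacna1h-205 has 10 more bases at its 3′ end, so the split between them is not read here as a difference in isoform. In 4 libraries (3 SIR, 1 control) Cacna1h-205 took 90.3% to 97.9% of the full-length Cacna1h count, and in the other 27 it took 36.5% to 44.1%.

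For Cacna1g, a test of transcript usage called a shift among its transcripts with housing. Of 5 genes with enough transcripts, it alone passed the test of transcript usage over both sexes (edgeR diffSpliceDGE, Simes p adjusted over 9985 genes, adjusted p = 0.0063), where 1.65% of genes passed, and in males (adjusted p = 0.0011), where 1.44% passed. None of the 5 passed in females (0.751% of genes), for the interaction (0.921%) or for sex (1.73%), where the counts at an unadjusted p under 0.05 were 0, 1 and 0 (3.49%, 4.45% and 6.29% of genes). Cacna1g had adjusted p = 1 in females and 0.56 for the interaction, so males and females were not shown to differ. Its bulk was made up by Cacna1g-211 (39.7% of counts), Cacna1g-201 (29.9%) and Cacna1g-207 (21.5%). The transcript behind the call was Cacna1g-209, which held 1.49% of the counts on average and equals Cacna1g-211 with the 69-base exon printed above removed.

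The estimated count of Cacna1g-209 was 0.00981, 16.2, 39.2, 447, 460, 551 and 868 in the 7 SIR males. In control males 7 libraries lay between 0.145 and 18.5 and control male 27 had 142. In SIR females 7 libraries lay at 3.90 or less and SIR female 10 had 409.7, and in control females 7 lay at 27.5 or less and control female 29 had 170. So 4 of 7 SIR males stood above every control male, and the other 3 overlapped with them. Relative to the other Cacna1g transcripts, the log2 fold change was 2.35 over both sexes and 3.93 in males. In the test of transcripts one by one, Cacna1g-209 did not pass. There it had an edgeR p of 0.0376 over both sexes (adjusted p = 0.428) and 0.0241 in males (adjusted p = 0.436). Cacna1g-209 shares every stretch of 31 bases with other transcripts of the gene, so its count rests on how kallisto divided shared reads. Over both sexes the call was lost without SIR male 15, the highest library (adjusted p = 0.0634), while in males it was kept without each male library in turn. Cacna1i, with adjusted p = 0.082 over both sexes and 0.155 in males, passed over both sexes without the library labelled SIR female 5 (adjusted p = 0.00959) and in both comparisons without SIR male 14 (adjusted p = 0.00622 over both sexes and 0.0108 in males). The transcript there was Cacna1i-205, at 0 in 6 of 7 SIR males and 4 of 8 control males, and in 5 of 8 SIR females and 4 of 8 control females. Its count was 65.5 in the library labelled SIR female 5.

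A measure that sums over transcripts is the share of full-length Cacna1g TPM that holds a stretch, given as a description without a test. The 69-base exon was in 58.4% to 67.9% of SIR male transcripts (median 60.5%), against 64.7% to 70.4% in control males (median 66.8%). SIR females had 60.4% to 72.3% (median 65.1%), against 53.9% to 67.3% in control females (median 66.3%). 6 of 7 SIR males lay below the lowest control male, though the ranges overlapped, and the female groups overlapped widely. SIR male 1 was below it by little (64.58% against 64.69%). Cacna1g-209 lacks this exon and is among the transcripts summed, so the share is not independent of its count. The 54-base exon averaged 54.7 ± 3.80% in SIR males and 54.7 ± 3.56% in control males, and 56.1 ± 4.38% in SIR females and 54.5 ± 4.58% in control females (SD, n = 7, 8, 8 and 8). The 21-base extension averaged 74.1 ± 4.78% in SIR males and 72.8 ± 2.54% in control males, and 73.7 ± 3.30% in SIR females and 75.1 ± 2.34% in control females.

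**Figure D4:**
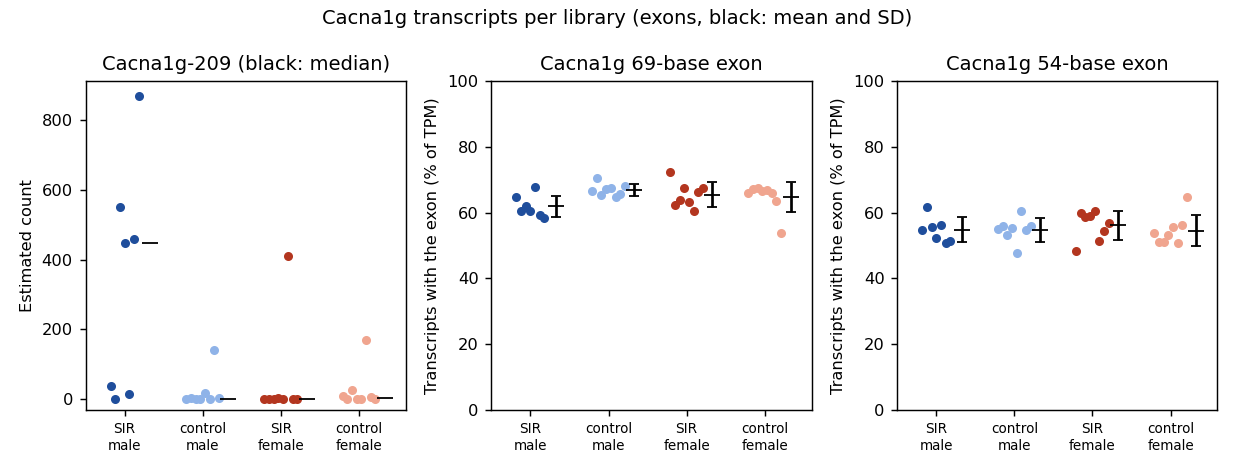
Left, estimated count of Cacna1g-209 per library with the group median in black; middle and right, the percent of full-length Cacna1g TPM with the 69-base and the 54-base exon, with the mean ± SD in black. Counts of Cacna1g-209 above 400 are seen in 4 SIR males and 1 SIR female, and the 69-base exon has a median of 60.5% in SIR males against 66.8% in control males.

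The 6 genes varied together across animals in 2 opposite sets. Over the 31 libraries, log2 CPM of Cacna1g, Hcn4 and Hcn2 correlated positively with each other, as did Cacna1h, Cacna1i and Hcn3, and all 9 pairs across the sets correlated negatively. Cacna1g and Hcn4 had Pearson's r = 0.77 and Spearman's rho = 0.81, and Cacna1g and Cacna1h had r = -0.76 and rho = -0.71. Hcn3 and Hcn4 had r = -0.67 and rho = -0.66. Without the 2 libraries farthest from the median, r was 0.80, -0.70 and -0.68 for these 3 pairs. All 15 pairs had adjusted permutation p of 0.0301 or less for r (two-sided, adjusted over 15 pairs). What share of all gene pairs would have such a p was not tested, so the pattern is not read as particular to these 6 genes. The pair Cacna1g and Hcn2 depends partly on few libraries: r = 0.47 became 0.26 without the 2 farthest, and rho was 0.30 (adjusted p = 0.103). Within SIR and within control libraries its r was 0.37 and 0.61. The signs within SIR and within control libraries were the same as over all libraries for Cacna1g and Hcn4 (r = 0.83 and 0.77) and for Cacna1g and Cacna1h (r = -0.82 and -0.72). The pairs were chosen after values were seen, and they share libraries.

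These sets went with the markers of thalamic regions. A region score is the mean, over a list of marker genes, of log2 CPM centred per gene. With the relay score (10 genes such as Prkcd, Rora and Tcf7l2), Cacna1g had r = 0.91 and rho = 0.89, Hcn4 r = 0.75 and rho = 0.77, and Cacna1h r = -0.85 and rho = -0.79. Each had a permutation p of 1e-05, the smallest that 100000 permutations can give, and an adjusted p of 6e-05 over 18 relations. The share of all genes related as closely to a region score was not tested. Without the 2 farthest libraries r was 0.89 for Cacna1g, 0.72 for Hcn4 and -0.79 for Cacna1h. Within SIR and within control libraries r was 0.93 and 0.90 for Cacna1g, 0.78 and 0.75 for Hcn4, and -0.89 and -0.83 for Cacna1h. Hcn2 followed the relay score less firmly (r = 0.47, adjusted p = 0.0136, and rho = 0.35, adjusted p = 0.0744). For Hcn2 r was 0.34 without the 2 farthest, so that this relation depends partly on them. Within SIR and within control libraries it was 0.38 and 0.63.

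With the score of the reticular nucleus and other inhibitory neurons (7 genes such as Pvalb, Six3 and Gad2), Cacna1i had r = 0.78 (adjusted permutation p = 9e-05) and rho = 0.71. Hcn3 had r = 0.60 (adjusted p = 0.00133) and rho = 0.57, and Cacna1h r = 0.52 (adjusted p = 0.00574) and rho = 0.48. Hcn4 had r = -0.54 (adjusted p = 0.00491) and rho = -0.50. Without the 2 farthest libraries r was 0.69 for Cacna1i, 0.50 for Hcn3, 0.48 for Cacna1h and -0.53 for Hcn4. Within SIR and within control libraries r was 0.90 and 0.72 for Cacna1i and 0.47 and 0.76 for Hcn3. For Cacna1h it was 0.49 and 0.58, and for Hcn4 -0.77 and -0.30, weaker in control libraries. With the relay score, Cacna1i had r = -0.58 (adjusted p = 0.00216) and Hcn3 r = -0.52 (adjusted p = 0.00551). The habenula score, with summed markers of 13.3 to 55.2 CPM in SIR and 12.9 to 88.8 CPM in control libraries, gave an adjusted p under the threshold for Hcn3 alone (r = 0.40, adjusted p = 0.0462).

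**Figure D5:**
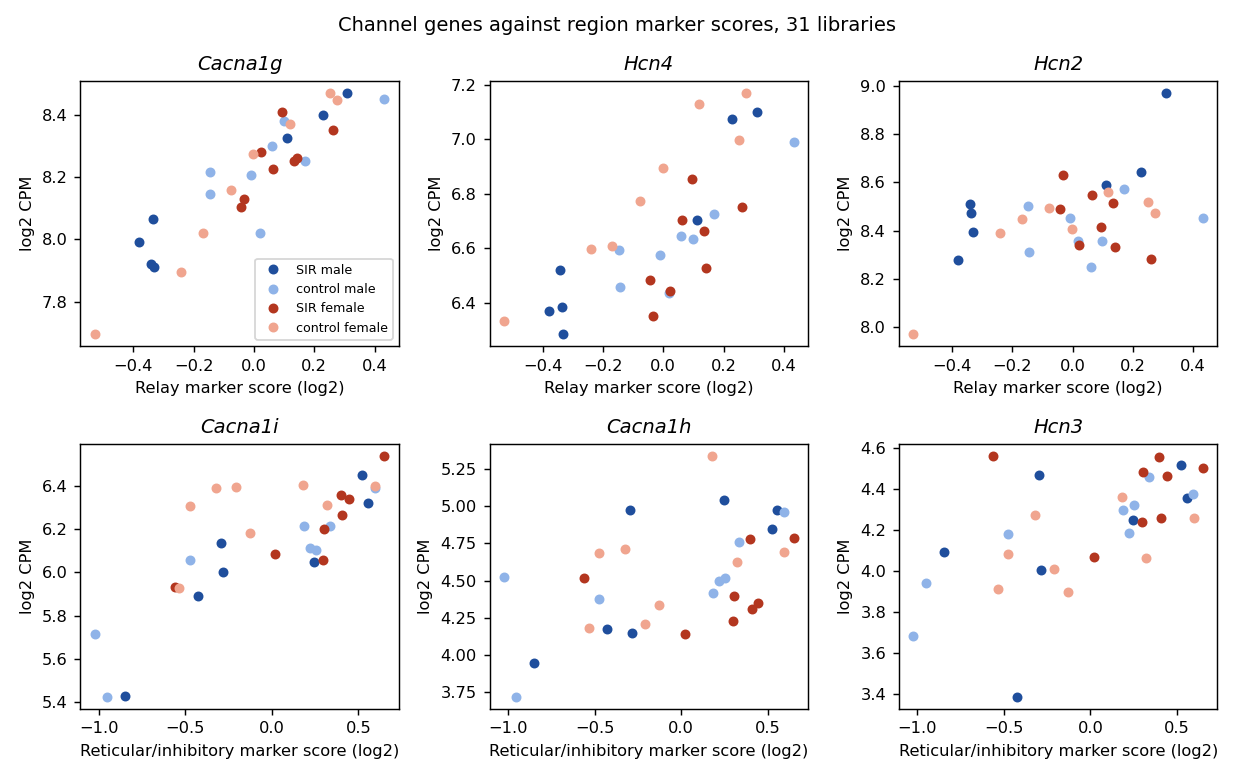
log2 CPM of each gene against a region marker score, 1 point per library coloured by group; top, Cacna1g, Hcn4 and Hcn2 against the relay score; bottom, Cacna1i, Cacna1h and Hcn3 against the score of the reticular nucleus and other inhibitory neurons. Of the 6 relations drawn, r is highest for Cacna1g (0.91) and Cacna1i (0.78), and libraries of all 4 groups are spread along each.

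The region scores themselves overlapped between the groups. The relay score ranged from -0.38 to 0.31 in SIR males, against -0.15 to 0.43 in control males, and from -0.04 to 0.26 in SIR females, against -0.53 to 0.28 in control females. The reticular score ranged from -0.85 to 0.56 in SIR males, against -1.02 to 0.60 in control males, and from -0.56 to 0.65 in SIR females, against -0.53 to 0.60 in control females. Of the 10 relay markers 1 passed for housing, Gbx2, higher in females, and of the 7 reticular ones none did. No marker of either list was at 0 in all libraries. Markers of other cells also moved with housing: the oligodendrocyte markers Mbp, Mobp and Cldn11 were lower in SIR females, and Mbp and Cnp were higher in SIR males. Of 5 midbrain markers 2 (Slc6a3 and Pax7) and of 7 choroid plexus markers 2 (Prlr and Slc4a5) were lower in SIR females and over both sexes. The midbrain sums were 12.7 to 60.03 CPM in SIR and 19.2 to 109.7 CPM in control libraries, and the choroid plexus sums 18.01 to 269 CPM in SIR and 23.7 to 1837 CPM in control libraries. The hypothalamus sums also varied widely, from 21.2 to 499.8 CPM in SIR and from 27.2 to 435.7 CPM in control libraries. In females 1 habenula marker (Gpr151), 1 cortical marker (Tbr1) and 1 astrocyte marker (Slc1a3) were higher, and in males 1 astrocyte marker (S100b). No marker of hypothalamus, striatum, microglia or endothelium passed, and the part of any of these in the values of the 6 genes was not tested. With 2 components of the region scores in the fit, none of the 6 genes passed in any comparison, against 2.78% of all genes over both sexes, 3.65% in males, 3.49% in females, 3.93% for the interaction and 3.22% for sex. At an unadjusted p under 0.05 there were 1, 0, 2, 1 and 2 of the 6. The share of all genes with such a p was not counted in this fit, so no excess is read from these counts.

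The genes most like each channel gene, by r of log2 CPM after group means were removed, over 31 libraries and among 11017 genes, were as follows. Cacna1g was followed most closely by Ildr2 (r = 0.92), Rims3, a presynaptic active-zone protein, and Shank2, a postsynaptic scaffold. Hcn4 was followed by Synpo2 (0.94), Ptpn3 and Dagla, the enzyme that makes the endocannabinoid 2-arachidonoylglycerol. Hcn2 was followed by Scn4b (0.91), a sodium channel beta subunit, Nefm, a neurofilament subunit, and Nat8l, which makes N-acetylaspartate. Cacna1i was followed by Ptprt (0.91), Gad2, an enzyme of GABA synthesis, and Slc32a1, the vesicular GABA transporter. Cacna1h was followed by Unc5a (0.92), a netrin receptor, Cadps2 and Klhdc10, and Hcn3 by Gprin2 (0.93), Gabrq, a GABA receptor subunit, and Gpx3. Synpo2 is also among the relay markers, and Gad2 and Slc32a1 among the inhibitory ones.

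Other genes of the same pathways were taken from lists, which had been drawn up with earlier results of these data known. Over 14 tested of 15 partners and regulators of HCN and T-type channels, 1 was lower over both sexes (4.55% of all genes passed) and 1 was higher in females (4.62%). At an unadjusted p under 0.05 there were 4 over both sexes (22.1% of all genes) and 8 in females (20.01%). In females 10 of 14 had a negative change and the median was -0.12. Cacna2d1, an auxiliary alpha2delta subunit of calcium channels, fell over both sexes by 0.21 on the log2 scale (SE 0.06, edgeR adjusted p = 0.0417), but the call was lost without any of 15 single libraries. Stx1a, the synaptic membrane protein syntaxin 1A, rose in females by 0.41 ± 0.12 (adjusted p = 0.0399), a call lost without any of 12 single libraries. Usp5, a deubiquitinase that acts on Cav3.2, was higher in males than in females by 0.11 (adjusted p = 0.00647), where 10.1% of all genes passed. Pex5l, or TRIP8b, the auxiliary subunit of HCN channels, had a change of -0.12 over both sexes (adjusted p = 0.294). The median log2 fold change of the list over both sexes was -0.10, against -0.01 for all genes tested.

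Of 10 tested of 11 subunits of high-voltage-activated calcium channels, 2 rose in females (4.62% of all genes passed). None was called in males (1.33%) or over both sexes (4.55%). There 3 and 4 had an unadjusted p under 0.05, against 17.6% and 22.1% of all genes. Cacna1s, the pore subunit of skeletal muscle, rose in females by 0.67 ± 0.14 (edgeR adjusted p = 0.00595), and Cacnb3, an auxiliary beta subunit, rose by 0.25 ± 0.06 (adjusted p = 0.0137). Both also passed the interaction (2.83% of all genes passed), at -1.01 (adjusted p = 0.00463) for Cacna1s and -0.30 (adjusted p = 0.0417) for Cacnb3. The second was lost without any of 18 single libraries. Cacnb3 was higher in males than in females by 0.17 (adjusted p = 0.0121), where 10.1% of all genes passed. The most abundant by CPM were Cacna1a, the P/Q-type pore subunit, with a change of -0.17 ± 0.06 over both sexes (adjusted p = 0.0995), and Cacnb4, with -0.18 ± 0.07 (adjusted p = 0.126). The median log2 fold change of the list was -0.17 in males, where 0 of 10 were positive, 0.01 in females and -0.07 over both sexes, and the median of all genes tested was -0.0012 in males.

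Of 17 tested of 18 other conductances and signals of burst firing, none was called for housing. At an unadjusted p under 0.05 there were 3 over both sexes, 2 in males and 3 in females. Of all genes, 22.1%, 17.6% and 20.01% had such a p. Ryr3, a calcium release channel of the endoplasmic reticulum, was lower in males than in females (-0.43 ± 0.11, edgeR adjusted p = 0.0125), where 10.1% of all genes passed. Atp2a2, the calcium pump SERCA2, and Plcb4, a phospholipase C of relay neurons, had changes of -0.07 and -0.14 over both sexes (adjusted p = 0.349 for Plcb4). The median of the list over both sexes was -0.08.

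All 16 genes of cyclic AMP synthesis and breakdown were tested, since cyclic AMP opens HCN channels. At an unadjusted p under 0.05 there were 6 in males, 6 in females, 5 for males and females together and 5 for the interaction. Of all genes, 17.6%, 20.01%, 22.1% and 15.3% had such a p. Over both sexes 2 fell (4.55% of all genes passed), Adcy9, an adenylyl cyclase (-0.18 ± 0.05, edgeR adjusted p = 0.0275), and Pde10a, a phosphodiesterase (-0.14 ± 0.04, adjusted p = 0.0349). In males 2 fell (1.33% of all genes passed), Pde10a (-0.28 ± 0.06, adjusted p = 0.0149) and Pde4d (-0.25 ± 0.06, adjusted p = 0.0198). In females 2 rose (4.62% of all genes passed), Adcy5 (0.14 ± 0.04, adjusted p = 0.0349) and Pde1b (0.25 ± 0.06, adjusted p = 0.0156). The interaction passed for 4 (2.83% of all genes), with a lower housing effect in males than in females for each: Pde1b (-0.40, adjusted p = 0.00878), Adcy5 (-0.24, adjusted p = 0.0144), Pde4b (-0.32, adjusted p = 0.0263) and Pde10a (-0.28, adjusted p = 0.0388). For sex (10.1% of all genes passed), Gnas, the stimulatory G protein subunit, was higher in males (0.11, adjusted p = 0.0198) and Pde4b was lower (-0.16, adjusted p = 0.0108). The most abundant by CPM after Gnas was Adcy1, with a change of -0.07 over both sexes (adjusted p = 0.740). The calls that some single library carried were Pde10a over both sexes (lost without any of 13) and for the interaction (18), Adcy5 in females (8), Pde4d in males (6), Adcy9 (3), Pde10a in males (2) and Pde4b for the interaction (1). Without the library labelled SIR female 5 the calls in females held for Stx1a, Cacna1s, Cacnb3 and Pde1b (adjusted p of 0.0253, 0.0107, 0.02 and 0.0108) and were lost for Adcy5 (adjusted p = 0.0575).

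Promoter sequence is shown for Hcn2, Hcn4 and Cacna1i, the members with an entry in the RefSeq table used. Hcn2 and Hcn4 correlated at r = 0.51 (rho = 0.46), and at r = 0.35 without the 2 farthest libraries. RefSeq (GRCm38.p6) gives 250 bases before and 50 after the start, on the plus strand, at chr10:79716384-79716683 for Hcn2, chr9:58822699-58822998 for Hcn4 and chr15:80286988-80287287 for Cacna1i. The Hcn4 window ends before the GENCODE start of that gene (chr9:58823412), so the 2 annotations place its start differently. Capitals mark GGGCGG, the core of a GC box, on either strand, with overlapping matches counted. Hcn2 has 3 matches and Hcn4 has 2, and Cacna1i has none in this window, while 35.7% of 32851 promoters of this length hold at least 1. TATAAA, which 13.6% hold, is in none of the 3. G and C make up 72.3% of the bases for Hcn2, 71.7% for Hcn4 and 62.7% for Cacna1i, against a median of 52.7% over all promoters.
Hcn2 promoter: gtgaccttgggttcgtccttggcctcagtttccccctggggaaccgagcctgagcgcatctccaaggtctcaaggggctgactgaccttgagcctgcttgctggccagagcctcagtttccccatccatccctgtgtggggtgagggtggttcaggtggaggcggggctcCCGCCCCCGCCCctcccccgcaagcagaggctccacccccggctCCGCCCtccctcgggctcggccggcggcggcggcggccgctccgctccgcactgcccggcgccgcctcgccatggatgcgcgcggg
Hcn4 promoter: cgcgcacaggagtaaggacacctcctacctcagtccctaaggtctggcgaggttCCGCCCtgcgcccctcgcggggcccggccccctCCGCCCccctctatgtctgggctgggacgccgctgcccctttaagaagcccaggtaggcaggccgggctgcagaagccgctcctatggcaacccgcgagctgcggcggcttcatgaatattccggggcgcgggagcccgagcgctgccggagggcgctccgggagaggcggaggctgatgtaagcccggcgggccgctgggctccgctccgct
Cacna1i promoter: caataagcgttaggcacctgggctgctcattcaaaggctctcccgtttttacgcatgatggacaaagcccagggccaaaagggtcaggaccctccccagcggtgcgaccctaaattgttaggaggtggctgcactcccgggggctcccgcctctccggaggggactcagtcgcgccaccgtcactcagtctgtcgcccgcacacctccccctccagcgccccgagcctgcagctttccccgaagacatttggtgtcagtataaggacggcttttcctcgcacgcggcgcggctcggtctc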

How the data were processed

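RNA was extracted with the Qiagen AllPrep kit and libraries were made with the Illumina Stranded mRNA Prep, per the labels. Reads were inspected with FastQC and quantified with kallisto on GRCm39, per the submitters' processing notes (versions, annotation release and strand setting: not given in the sources used here). Files as deposited hold an estimated count and a TPM per transcript, the second scaled by the authors for effective length and library, and the lengths. Of 105878 transcripts, 104949 (99.12%) were matched to genes of GENCODE M21 (GRCm38), and the others held 0.69% to 0.76% of counts. All 39 transcripts of the 6 genes had the annotated length. Coordinates are those of GRCm38.

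Estimated counts were summed per gene, rounded, filtered with filterByExpr, scaled by TMM and tested with edgeR 4.0.16 (R 4.3.3; robust quasi-likelihood fit of 4 group means, 5 contrasts, Benjamini-Hochberg over all genes, threshold 0.05). Transcripts were tested likewise, and usage with diffSpliceDGE. DESeq2 1.42.0, limma 3.58.1, other scalings, filters, lengths and left-out libraries were alternatives. Scripts were tested on simulated data. Replicates differed beyond sampling noise in all 105 within-group pairs. Correlations used log2 CPM with a prior count of 2 and 100000 permutations. The genes named were the 6 channels, list genes called in any contrast, the 2 most abundant of each list and the 3 genes most like each channel with a mean of at least 5 CPM. The members and lists were chosen with earlier results of these data known. Estimated counts carry the uncertainty of dividing shared reads, which matters for transcripts of 1 gene.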

Additional observations from a re-analysis of the deposited data

Results flagged for a closer look

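In 12 of 72 groups of values checked, 1 library stood apart from the rest of its group by Dixon's test; chance gives about 1 in 20. Hcn2 in SIR male 14 was high by full-length TPM (280 TPM, the next SIR male at 214). In control female 20, Cacna1h was high (40.5 CPM, next 26.2 CPM; full-length 8.11 TPM) and Hcn2 low (251 CPM, next 336 CPM). In control female 31, the shallowest library, the share of Cacna1g with the 69-base exon was low (53.9%, next 63.6%) and that with the 54-base exon high (64.6%, next 56.2%).

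The remaining flags were estimated counts of minor transcripts. Cacna1g-209 had 410 in SIR female 10 (next 3.90), 142 in control male 27 (next 18.5) and 170 in control female 29 (next 27.5). Cacna1i-205 had 9.21 in SIR male 14, where the other SIR males were at 0, 65.5 in the library labelled SIR female 5 (next 14.4) and 132 in control female 20 (next 35.6).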

How the results depend on the processing

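No paired analysis was possible because the groups compared share no replicate numbers. Under 16 alternative settings the 6 genes gave 480 log2 fold changes, of which 435 kept direction and side of the threshold, 44 reversed and 1 became called; of 930 values with 1 library left out, 44 reversed and none was called. The value that became called was Hcn3 in females under limma-voom with sample weights (0.33, so 1 gene called there). Member transcripts were called in none of the alternatives run.

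With 2 region components, Cacna1h was -0.069 for sex, Hcn2 was -0.022 in females and Hcn4 was -0.047 in males. With effective length offsets, Cacna1g was 0.16 over both sexes and 0.071 in males and 0.12 for sex, Cacna1i was 0.069 over both sexes and 0.022 in females and Hcn3 was 0.018 in males. With the length trend removed, Cacna1g was 0.064 over both sexes and 0.056 for sex, Cacna1h was 0.055 over both sexes, Cacna1i was 0.056 over both sexes and Hcn3 was 0.019 in males. With limma-voom and sample weights, Cacna1g was -0.0065 in females, Cacna1h was 0.10 over both sexes, Cacna1i was 0.032 over both sexes, Hcn2 was -0.017 in females, Hcn3 was 0.057 in males and Hcn4 was -0.11 in males. With limma-trend on log2(TPM + 0.1), Cacna1g was 0.16 over both sexes and 0.034 in males and 0.12 for sex, Cacna1h was -0.078 in males, Cacna1i was 0.048 over both sexes and 0.020 in females and Hcn4 was -0.030 in males. With limma-trend on log2(TPM + 1), Cacna1g was 0.16 over both sexes and 0.033 in males and 0.12 for sex, Cacna1h was -0.061 in males, Cacna1i was 0.045 over both sexes and 0.019 in females and Hcn4 was -0.029 in males. With upper-quartile scaling, Cacna1g was 0.0079 over both sexes and Hcn3 was 0.021 in males. Without control females 20 and 31, Cacna1g was -0.037 in females, Cacna1h was 0.072 over both sexes, Hcn2 was -0.029 in females and Hcn3 was 0.00036 in males. Without the 2 shallowest libraries, Cacna1i was -0.013 in males. Without the 8 libraries numbered apart, Cacna1g was 0.020 for sex, Cacna1h was -0.012 for sex and Cacna1i was 0.0052 over both sexes. The cause was not tested.

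With single libraries left out, the log2 fold change ran for Cacna1g over both sexes from -0.032 to 0.019, Cacna1g for sex from -0.038 to 0.014, Cacna1h over both sexes from -0.066 to 0.051, Cacna1h for sex from -0.0072 to 0.10, Cacna1i in males from -0.060 to 0.11. It ran for Cacna1i over both sexes from -0.063 to 0.022, Hcn2 in females from -0.019 to 0.053, Hcn3 in males from -0.071 to 0.10, Hcn4 in males from -0.053 to 0.090. Transcript usage, main count 1 (Cacna1g), was called for 0 to 2 genes over both sexes and 1 to 2 in males with a male library left out. It was called for 2 genes, Cacna1g and Cacna1i, in both comparisons with no filter and over both sexes without the library labelled SIR female 5. Of 5 neighbours in the order of levels by all-transcript TPM, 3 held in every library, 5 by full-length TPM and 2 by CPM. Several alternatives were chosen after seeing the data: leaving out control females 20 and 31, leaving out male libraries for usage, full-length TPM, and the alternatives of list genes.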
